A study of Mus musculus with 2 samples.

Results

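The MAP kinase cascade genes were examined for GATA4 occupied sites (OS) in the liver of adult mice. The set comprised every protein-coding gene of the GENCODE M1 annotation whose symbol begins with Mapk, Map2k, Map3k, Map4k or Dusp followed by a digit. There were 69 such genes among 22238 protein-coding genes, and the other 22169 served as background. Map3k4 and Dusp8 are each annotated under more than 1 gene ID, so that the 69 symbols stand for 71 IDs, and the IDs of a symbol were counted as 1 gene. The genes were chosen by symbol, and the occupied ones among them were selected on the positions of the GATA4 peaks. A gene was called occupied when the midpoint of a site of the common GATA4 list lay in the gene body or within 10 kb of it. GATA4 ChIP-seq had been carried out with the antibody GATA4 C-20 on whole liver of C57BL/6 x Sv129 mice aged 2 to 3 months, and input DNA of the same tissue, strain and age, not precipitated with any antibody, was the background of the peak calls. The study made 2 biological replicates, each from pooled animals, but the labels list 1 ChIP sample and each of the 3 peak lists used here is a single list for both. The spread between replicates is thus not known from these lists, and what is counted throughout is sites or genes, not animals. The common list holds 4409 OS, those found by the SPP caller (4811 peaks) that met a peak of the MACS2 caller (5867 peaks). All coordinates are those of mm9 and are counted from 1.

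MAP kinase cascades relay signals from receptors and stress sensors through kinases that phosphorylate each other in order. A MAP4K activates a MAP3K, which activates a MAP2K, which activates a MAP kinase of the ERK, JNK or p38 type, and adaptor proteins hold the kinases together. Dual specificity phosphatases (DUSP) remove phosphate groups, and those of the MAP kinase phosphatase class switch the MAP kinases off. In the liver these cascades are known for their part in growth after tissue loss and in responses to stress and inflammation. GATA4 is a zinc finger transcription factor that binds WGATAR, where W is A or T and R is A or G.

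Of the 16 OS that the cascade genes held, 15 contained WGATAR, and the OS of Dusp6 contained the shorter GATAR only. The match nearest to the midpoint of each OS is printed below with 10 bases on either side. Whether the printed match is the one bound was not tested. Each is written 5′ to 3′ on the strand of the motif, with the motif in capitals and the number of the OS in the common list in brackets.
Map4k2 (OS 2116): tgagcgctgtAGATAAggctgttctc
Map4k3 (OS 3396): gaattaaatgAGATAAtatgtggaaa
Map3k3 (OS 2): gtcgcccatcAGATAGcaaggctggt
Map3k3 (OS 4374): accctccatgTGATAAagtctggcat
Map2k3 (OS 3713): ggaagttcatAGATAAagttgcagtc
Map2k2 (OS 3769): atggtagggtTGATAGtgagtgccgg
Mapk6 (OS 2230): attgttgagcAGATAAgctcagggtg
Mapk9 (OS 2999): agcatgacctAGATAAtacagaatcc
Mapk7 (OS 3401): cgaagggcggAGATAAgggagggagg
Dusp16 (OS 270): tccactgataAGATAAactcctgccc
Dusp12 (OS 798): agacgtcagcAGATAAgcaaactcaa
Dusp16 (OS 2141): atcgcttaacTGATAAccagggaggc
Dusp6 (OS 2477): ttccgctccgGATAAgccccagtgc
Dusp22 (OS 3138): gcgcgtgcacAGATAAgccactctgg
Dusp19 (OS 3247): gctcttacggTGATAAgagtttccgc
Dusp7 (OS 4045): cgcgctcggcAGATAGtcaatcgccg
AGATAA was the motif nearest to the midpoint in most of these sites, and AGATAG or TGATAG occurred there only at Map3k3, Map2k2 and Dusp7. The bases beside the motif differed from site to site.

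GATA4 OS were present at 14 of the 69 cascade genes (20.3%, Wilson 95% interval 12.5 to 31.2), against 13.7% of the other protein-coding genes (3029 of 22169). Since the genes were chosen with the peaks in view, both shares are descriptions and no test was made. Occupied genes occurred in every tier but the adaptors. They made up 2 of 5 Map4k genes (Map4k2 and Map4k3), 1 of 15 Map3k genes (Map3k3), 2 of 7 Map2k genes (Map2k2 and Map2k3), 3 of 13 Mapk genes (Mapk6, Mapk7 and Mapk9) and 6 of 24 Dusp genes (Dusp6, Dusp7, Dusp12, Dusp16, Dusp19 and Dusp22). The adaptor tier, with Mapk8ip1 to Mapk8ip3, which encode JNK scaffolds, Mapk1ip1 and Mapk1ip1l, had an OS at 0 of 5 genes. The intervals of the tiers overlapped one another widely. Map3k3 and Dusp16 held 2 OS each and the other 12 genes held 1 each. The share with 2 or more was thus 14.3% of the 14 occupied cascade genes, beside 22.1% of the other occupied genes. With 14 genes this share is imprecise, and the difference was not tested. With the upper 50% of the common list alone, 4 cascade genes (5.80%) stayed occupied against 7.24% of the other genes, so that the order of the shares turned.

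**Figure D1:**
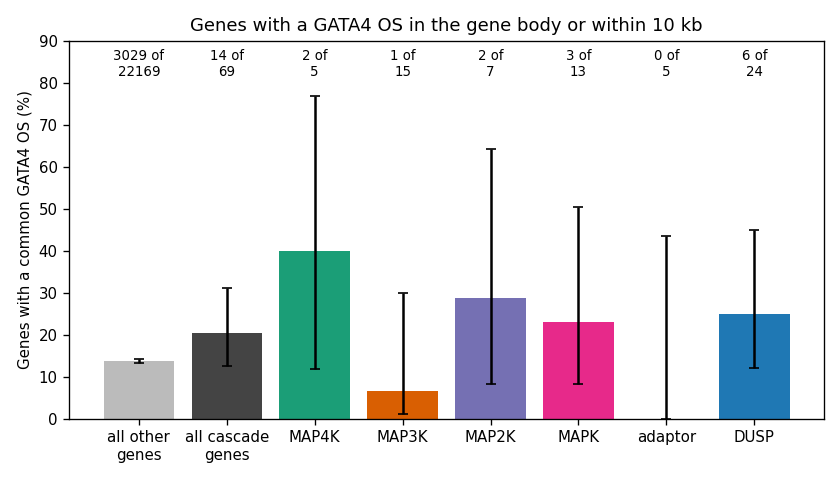
Share of genes with a common GATA4 OS in the gene body or within 10 kb (y axis, percent), for the other protein-coding genes, all cascade genes and each tier; bars are shares, lines are Wilson 95% intervals and the counts stand above. The share is 20.3% for the 69 cascade genes and 13.7% for the others, the tiers run from 0 of 5 adaptor genes to 2 of 5 Map4k genes, and their intervals overlap.

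Gene length moved with occupancy in the background. Among the other genes, 5.24% of those up to 4736 bp long were occupied, 11.4% of those up to 15521 bp, 14.4% of those up to 42663 bp and 23.6% of longer ones. The shares of the cascade genes did not rise in this order, with 1 of 7 (14.3%), 5 of 20 (25.0%), 4 of 17 (23.5%) and 4 of 25 (16%) occupied in the same classes. With 7 to 25 genes in a class these shares are imprecise, and whether the order differs from the background was not tested. The median length of the cascade genes was 19.4 kb and that of the other genes 15.5 kb. Occupied and unoccupied cascade genes had almost the same median length, 19.8 kb and 19.4 kb. Per Mb of gene body and flanks, summed over genes, there were 3.51 pairs of OS and gene for the cascade genes and 2.80 for the other genes. An OS or stretch shared by several genes was counted once for each of them. The part of gene length in the difference of shares was not tested.

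Every peak carries the same score of 1000, so that the files give no strength for a site. The number of the OS in the common list was described instead. The files do not explain the order of this list, so that the number cannot be read as a strength. The 16 OS had a median number of 3068, and all other common OS had a median of 2202. Only 5 of the 16 (31.2%) were in the upper 50% of the list, and 6 were in its last 25%. At the head of the list, 2 of the 69 genes (2.90%) held one of the first 500 OS, namely Map3k3 with number 2 and Dusp16 with number 270, against 1.93% of the other genes. Dusp12 came next with number 798. The remaining 13 OS had numbers from 2116 to 4374. The MACS2 peaks that overlap the 16 OS had numbers from 2 to 5012 with a median of 2730.5, and the peak at the leading Map3k3 site was number 2 there as well.

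**Figure D2:**
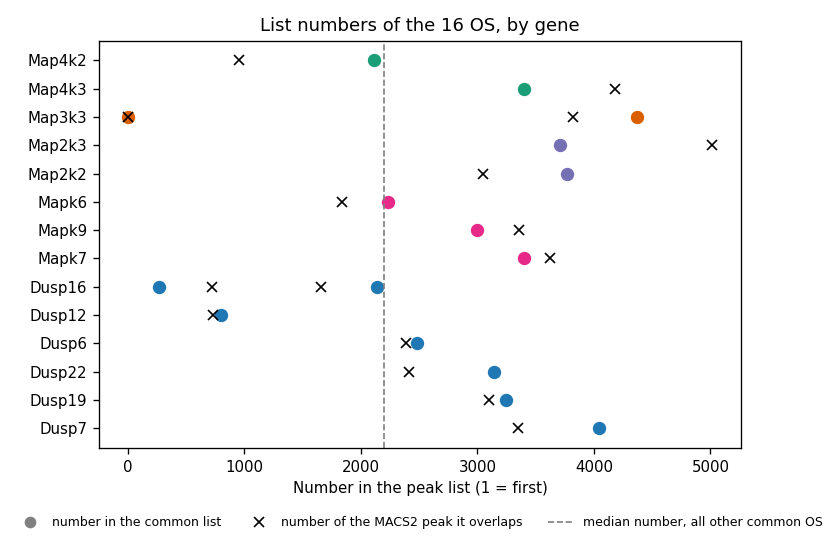
Number of each of the 16 OS in the common list (coloured circles, by tier) and of the MACS2 peak it overlaps (crosses), by gene; the dashed line is the median number of all other common OS, 2202. OS 2 of Map3k3, OS 270 of Dusp16 and OS 798 of Dusp12 are leftmost among the common OS, and 11 of the 16 OS lie to the right of the line.

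The unoccupied genes span all tiers. They are Map4k1, Map4k4 and Map4k5 of the first, Map3k1, Map3k2 and Map3k4 to Map3k15 of the MAP3K tier, Map2k1 and Map2k4 to Map2k7, 10 Mapk genes, the 5 adaptors and 18 Dusp genes.

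Among the kinases at the top of the cascades, the germinal centre kinase gene Map4k2 (ENSMUSG00000024948, plus strand) held OS 2116 in intron 24, 8.05 kb past its TSS. This OS was 186 bp wide, held 1 AGATAA and overlapped MACS2 peak 955. Map4k3 (ENSMUSG00000024242, minus strand) encodes a related kinase that responds to amino acids, and OS 3396, at chr17:81129302-81129621, lay 2028 bp upstream of its TSS with 4 WGATAR. Map4k1 and Map4k5 had no peak of any list in their windows. The OS of Map4k2, the earliest in the list for this tier, is shown with WGATAR or its complement YTATCW in capitals on the plus strand.
Map4k2 chr19:6349196-6349381: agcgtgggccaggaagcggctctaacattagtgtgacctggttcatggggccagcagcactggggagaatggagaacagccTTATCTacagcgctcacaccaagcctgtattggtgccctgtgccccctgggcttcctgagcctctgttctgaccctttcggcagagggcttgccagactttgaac

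Map3k3 (ENSMUSG00000020700, chr11:105945927-106016760, plus strand) encodes MEKK3, a kinase known to act above ERK5 and p38 and to be needed for blood vessel formation. It was the only Map3k gene with a common OS. OS 2 lay in intron 6 of the 16 exons, 50.8 kb past the TSS, with 3 WGATAR all on the plus strand, and overlapped a MACS2 peak of 1568 bp. A second site, OS 4374 at chr11:105984252-105984331, lay in intron 5 and 12425 bp from the leading site. It was 80 bp wide with a single TGATAA. The nearest protein-coding TSS to both was that of Limd2, 24525 bp from OS 2 and 36950 bp from OS 4374. The close paralog Map3k2 had no OS within 50 kb and its nearest OS was 162 kb away. The central 300 bases of OS 2 are printed because it is the second site of the whole list.
Map3k3 chr11:105996567-105996866: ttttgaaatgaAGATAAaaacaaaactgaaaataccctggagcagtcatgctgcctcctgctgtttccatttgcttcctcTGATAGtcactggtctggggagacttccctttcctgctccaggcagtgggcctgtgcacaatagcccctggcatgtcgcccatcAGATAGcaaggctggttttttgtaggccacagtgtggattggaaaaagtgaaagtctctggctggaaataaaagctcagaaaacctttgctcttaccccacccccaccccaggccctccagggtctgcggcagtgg

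In the MAP2K tier, Map2k2 (ENSMUSG00000035027, plus strand) encodes MEK2, which phosphorylates kinases of the ERK type. Its OS 3769 at chr10:80568766-80569085 had its midpoint in exon 1, 265 bp past the TSS of the longest transcript and 165 bp before another TSS of the gene. It held a single TGATAG and overlapped MACS2 peak 3047. Its GC content of 73.8% was the highest of the 16 OS. The paralog Map2k1, for MEK1, had its nearest OS (number 1398) 12.5 kb from the gene, just outside the window. Map2k3 (ENSMUSG00000018932, plus strand) encodes MKK3, an activator of p38. It held OS 3713 in intron 1, 2938 bp past the TSS, with 3 WGATAR. Map2k4, Map2k5, Map2k6 and Map2k7 had no peak of any list in their windows.
Map2k3 chr11:60748324-60748623: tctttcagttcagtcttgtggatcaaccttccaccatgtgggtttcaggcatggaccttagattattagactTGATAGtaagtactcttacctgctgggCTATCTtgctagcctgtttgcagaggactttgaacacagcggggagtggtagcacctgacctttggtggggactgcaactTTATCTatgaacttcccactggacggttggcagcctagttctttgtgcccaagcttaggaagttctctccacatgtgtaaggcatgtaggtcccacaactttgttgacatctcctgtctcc

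Of the MAP kinases themselves, Mapk6, Mapk7 and Mapk9 were occupied, each with 1 OS at or near its TSS. Mapk6 (ENSMUSG00000042688, minus strand) encodes the atypical kinase ERK3, and its OS 2230 was centred 251 bp upstream of a TSS, over an exon of the non-coding gene 4933433G15Rik, and overlapped MACS2 peak 1836. Mapk7 (ENSMUSG00000001034, minus strand) encodes ERK5, the MAP kinase below MEKK3. OS 3401, at chr11:61308029-61308135, was centred 284 bp upstream of its nearest protein-coding TSS with an AGATAA 4.50 bp from the midpoint, and overlapped MACS2 peak 3622. Mapk9 (ENSMUSG00000020366, plus strand) encodes JNK2, and OS 2999 at chr11:49661543-49661862 lay in intron 1, 1307 bp past a TSS, with 4 WGATAR. The genes of ERK1 (Mapk3), of JNK1 (Mapk8) and of all p38 kinases (Mapk11 to Mapk14) had no OS. Mapk3 was the nearest miss, with OS 3204 at 11.0 kb from the gene. In the Mapk6 OS the motif lies close to the right edge.
Mapk6 chr9:75257989-75258138: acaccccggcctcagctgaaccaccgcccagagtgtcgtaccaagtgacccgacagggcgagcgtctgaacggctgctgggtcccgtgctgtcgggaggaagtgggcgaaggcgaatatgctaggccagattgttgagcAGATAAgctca

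The phosphatase genes held 7 OS. Of the 10 that encode MAP kinase phosphatases (Dusp1, Dusp2, Dusp4 to Dusp10 and Dusp16), 3 were occupied, and of the other 14 Dusp genes also 3. Dusp16 (ENSMUSG00000030203, chr6:134665488-134742643, minus strand) encodes MKP-7, which acts on JNK and p38. It held OS 270 in intron 4 and OS 2141 in intron 5, 6787 bp apart and 61.5 and 68.3 kb past the TSS of its longest transcript. A shorter transcript starts 29.8 kb from OS 270. The sites overlapped MACS2 peaks 725 and 1657, and OS 2141, at chr6:134674269-134674429, held 1 TGATAA. In OS 270, TGATAA and AGATAA overlap by 1 base at the midpoint and another AGATAA lies 66.0 bp to the left of it on the other strand.
Dusp16 chr6:134681025-134681248: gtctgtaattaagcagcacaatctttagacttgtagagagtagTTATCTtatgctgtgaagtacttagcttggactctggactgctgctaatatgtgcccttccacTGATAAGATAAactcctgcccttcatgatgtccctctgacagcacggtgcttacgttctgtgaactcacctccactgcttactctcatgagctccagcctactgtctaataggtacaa

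Dusp6 and Dusp7 encode phosphatases selective for ERK, and Dusp6 is a textbook feedback gene of this pathway. OS 2477, at chr10:98725676-98725768 and overlapping MACS2 peak 2384, was centred 143 bp upstream of the Dusp6 TSS. It was 93 bp wide and was the only OS of the cascade genes without WGATAR. OS 4045, at chr9:106270118-106270212 and overlapping MACS2 peak 3352, was centred 798 bp upstream of the Dusp7 TSS, with 1 AGATAG. Dusp9, for another ERK-selective phosphatase, had no OS within 50 kb. Dusp22 encodes an atypical phosphatase linked to JNK and T cell signalling, and its OS 3138 at chr13:30752083-30752402 lay in intron 1, 263 bp past a TSS. It held 1 AGATAA 4 bp from the midpoint and overlapped MACS2 peak 2414. Dusp12 and Dusp19, also for atypical phosphatases, were occupied only beyond their 3′ ends. OS 798, at chr1:172797917-172798103, lay 5619 bp downstream of Dusp12 and 108 bp from a TSS of Atf6, which encodes a sensor of protein folding stress. It held 2 WGATAR and overlapped MACS2 peak 730. OS 3247, at chr2:80478799-80479118, lay 6440 bp downstream of Dusp19 and 15 bp from a TSS of Nup35, a nuclear pore gene. It held 1 TGATAA and overlapped MACS2 peak 3101. In another count, an OS outside the gene body was kept only where the nearest protein-coding TSS was that of the cascade gene. Dusp12 and Dusp19 then dropped out, and 12 of 69 genes (17.4%) with 14 OS stayed. The rule was not applied to the other genes, so that no background share stands beside this count. The immediate early gene Dusp1 had its nearest OS 40.4 kb away.

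By midpoint, 8 of the 16 OS lay in introns, 3 of them first introns, 1 in an exon, 5 upstream of the gene and 2 downstream. For 12 of the 16, the nearest protein-coding TSS was that of the cascade gene. When each OS was given to the single gene with the nearest TSS (1 per gene) within 50 kb, the count was again 14 cascade genes against 11.0% of the others, but 10 genes were shared. Map3k3, Dusp12, Dusp16 and Dusp19 were lost, while Dusp1 (OS 2278), Dusp5 (OS 2960), Dusp23 (OS 913) and Map3k9 (OS 909) came in.

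**Figure D3:**
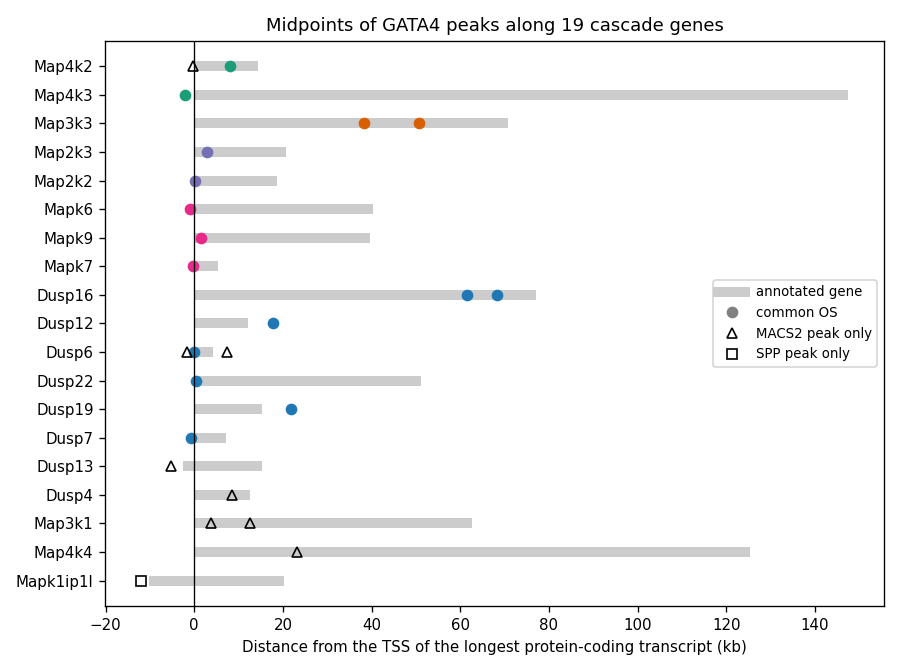
Midpoints of GATA4 peaks along the 19 cascade genes with a peak in any list (x axis, distance in kb from the TSS of the longest protein-coding transcript, in the direction of transcription); grey bars are the annotated genes, circles common OS, triangles MACS2 peaks and the square an SPP peak without a common OS. Map3k3 and Dusp16 hold their OS deep in the gene, at 38.4 and 50.8 kb and at 61.5 and 68.3 kb, and the OS of Dusp12 and Dusp19 lie past the end of the gene.

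Within 1000 bp of a protein-coding TSS lay 8 of the 16 OS (50%, Wilson 95% interval 28.0 to 72.0), against 20.3% of the 3166 OS in the windows of other protein-coding genes and 14.6% of all other common OS. The TSS was that of the cascade gene itself in 6 cases, Map2k2, Mapk6, Mapk7, Dusp6, Dusp7 and Dusp22. Counted by gene, 6 of 69 (8.70%) held such an OS, against 3.11% of the other genes. The windows favour sites near genes by construction, which bears on the comparison with all other common OS. The OS of other protein-coding genes were taken from windows of the same kind. No test was made of these shares. These 8 sites had CpG observed over expected ratios from 0.367 to 1.16, and the 8 farther sites from 0 to 0.308, so that the groups did not overlap. The same order held for the medians of all other common OS, with 0.666 within 1000 bp of a TSS and 0.226 beyond. Their ranges overlapped, however, from 0 to 1.48 within 1000 bp and from 0 to 1.31 beyond. All 5 OS with 3 or 4 WGATAR (Map4k3, Map3k3, Map2k3, Mapk9 and Dusp16) lay beyond 1000 bp from a TSS, and among the 8 sites within 1000 bp the OS of Dusp12 had 2 and the others had 1 or 0.

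**Figure D4:**
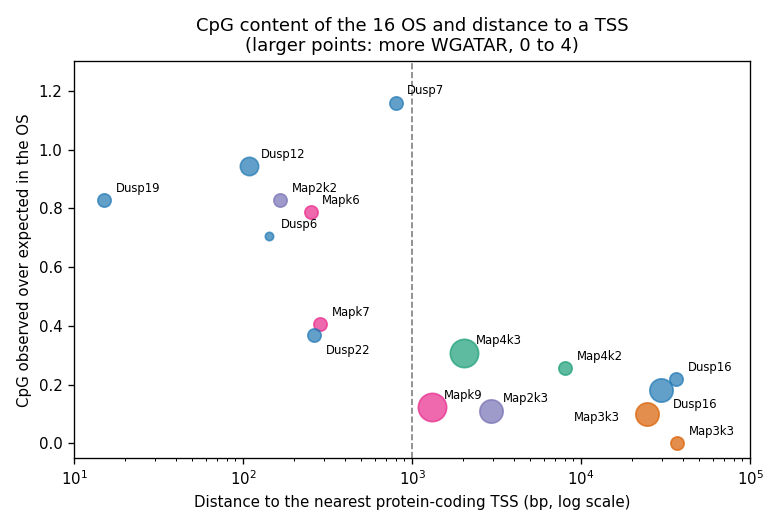
CpG observed over expected in each of the 16 OS (y axis) against the distance from its midpoint to the nearest protein-coding TSS of any gene (x axis, bp, log scale); colours are the tiers, the size of a point rises with its number of WGATAR, and the dashed line marks 1000 bp. The 8 sites to the left range from 0.367 to 1.16 and the 8 to the right from 0 to 0.308.

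Of the cascade OS, 93.8% held WGATAR (15 of 16, Wilson interval at 95% from 71.7 to 98.9), and so did 82.9% of the other 4393. Stretches of the same width taken 5000 bp rightwards of the cascade OS held it in 6 of 16 cases (37.5%, 18.5 to 61.4), and those beside the other OS in 31.9%. The motif was in the OS but not in its stretch at 9 of the 16 sites, and the reverse occurred at 0, a difference that passed the exact McNemar test (p = 0.00391, two-sided). The motif was not used to choose genes or sites, but these are sites of 1 pooled sample, so that the p-value does not cover differences between animals. The other OS showed the same order, 82.9% against 31.9%, and the test does not set the cascade OS apart from them. The 16 OS held 28 WGATAR, 13 of them AGATAA (46.4%, against 44.6% in the other OS), 6 TGATAA, 5 AGATAG and 4 TGATAG. Within 50 bp of the midpoint lay 20 of the 28 (71.4%), against 74.0% in the other OS. Of the 16 OS, 6 held at least 2 motifs (37.5%), against 34.7% of the others, and 5 held at least 3 (31.2%, 14.2 to 55.6), against 9.67% of the others. The median width was 206 bp for the 16 OS and 190.0 bp for the others, and 37.5% of the 16 were 320 bp wide against 25.5% of the others. Of the 5 OS with 3 or 4 motifs, 4 were 311 to 320 bp wide, and the part of width in the count of motifs was not tested.

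**Figure D5:**
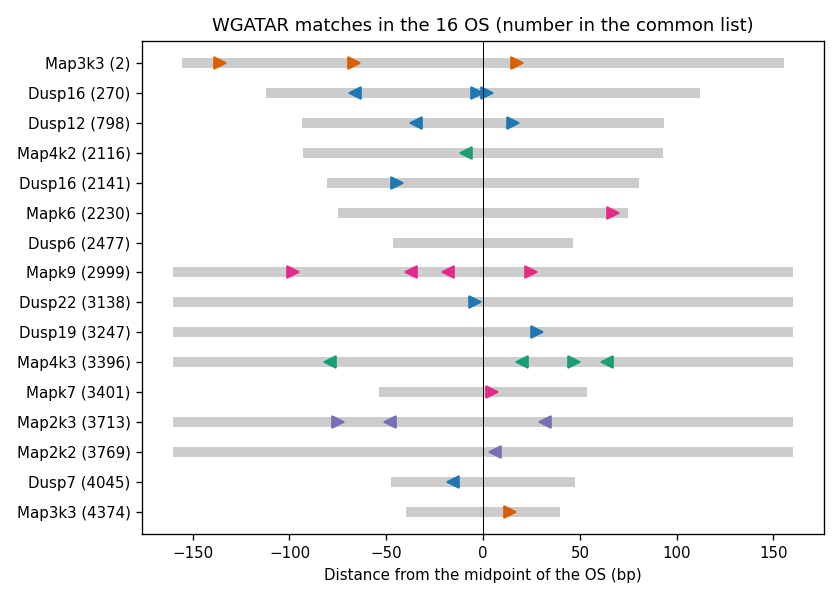
Positions of all 28 WGATAR in the 16 OS (x axis, bp from the midpoint of the OS), in the order of the common list from top to bottom; grey bars show the width of each OS, and arrows point right for the plus strand and left for the minus strand. Of the 28 matches 20 lie within 50 bp of the midpoint, and the OS of Dusp6 has no arrow.

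Motifs of other factors were searched on both strands of the same OS. TGANTCA, the site of AP-1 factors, through which MAP kinase signals reach many genes, was present in 0 of 16 OS (Wilson 95% interval up to 19.4%) and in 7.58% of the other common OS. The E-box CANNTG was found in 6 of 16 (37.5%, 18.5 to 61.4) against 60.4%, and the ETS core CCGGAA or CAGGAA in 4 of 16 (25.0%, 10.2 to 49.5) against 47.1%. The forkhead sequence TGTTTAC or TGTTTGC was found in 2 of 16 (12.5%) against 12.2%, and the nuclear receptor element AGGTCA in 4 of 16 (25.0%) against 24.3%. With 16 sites these shares are imprecise, and a match or its absence is a description of the letters only. From 250 bases before to 50 after the TSS of the longest transcript, WGATAR was present at 2 of 14 occupied genes (14.3%), at 8 of 55 unoccupied cascade genes (14.5%) and at 27.0% of the other protein-coding genes.

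Peaks found by a single caller added 5 genes. In the MACS2 list, 18 cascade genes (26.1%) had a peak in their window, against 17.3% of the others. The 8 MACS2 peaks without a common OS had numbers from 1374 to 5677, with a median of 4726. They included 2 in intron 1 of Map3k1 (numbers 5153 and 5677), for MEKK1, 1 in intron 1 of Dusp4 (4763), for the nuclear phosphatase MKP-2, 1 in intron 2 of Map4k4 (5523) and 1 upstream of Dusp13 (4690). These 4 genes had no common OS. Dusp6 gained peaks 1564 bp upstream (2398) and 7445 bp downstream of its TSS (1374), and Map4k2 gained one centred 221 bp upstream of its TSS (3645). In the SPP list alone, peak 4702 lay 1815 bp upstream of a TSS of Mapk1ip1l. All 1496 MACS2 peaks without a common OS had a median number of 4797.

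Beyond the window, the 55 unoccupied cascade genes had their nearest OS at a median of 128 kb, from 11.0 kb at Mapk3 to 6808 kb at Map3k15. Just outside the limit of 10 kb were Mapk3, Mapk8ip2 with OS 21 at 11.9 kb, and Map2k1, and the farthest inside were Dusp12 and Dusp19. A window of 50 kb brought 29 genes (42.0%) against 27.7% of the others, and the gene body alone 7 (10.1%) against 7.70%.

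Other genes of these pathways were taken from lists written with earlier results of these data known. Of 88 annotated genes, 18 were occupied (20.5%, Wilson 95% interval 13.3 to 30), an interval that holds the 13.7% of protein-coding genes outside the cascade set. The share was 4 of 38 for Ras and Raf inputs, 3 of 11 for kinases that are substrates of MAP kinases, 7 of 18 for feedback inhibitors and scaffolds and 4 of 21 for AP-1, ETS and related target factors. The sites earliest in the list were those of Atf3 (OS 55), a stress-induced transcription factor, Rap1a (OS 75), a small GTPase, and Gadd45a (OS 213), a stress gene that activates Map3k4.

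Occupancy at marker genes was checked against the labelled tissue. OS were found at 5 of 10 hepatocyte genes (Alb, Hnf4a, F10, Ttr and Cyp7a1), 8 of 10 endothelial genes, 1 of 6 cholangiocyte genes, 0 of 6 Kupffer cell genes and 0 of 6 stellate cell genes, beside the 13.7% of protein-coding genes outside the cascade set. The Wilson 95% intervals were 23.7 to 76.3% for the hepatocyte genes, 49 to 94.3% for the endothelial genes and 3.01 to 56.4% for the cholangiocyte genes, and 0 of 6 allows up to 39.0%. Whole liver mixes these cells, and in which of them the cascade genes were occupied cannot be told apart from these files. The paper reported that deleting Gata4 in hepatocytes led to a nearly complete loss of GATA4 at the sites it then tested. None of those sites was at a cascade gene.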

How the data were processed

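GATA4 ChIP-seq of whole mouse liver was analysed from 3 deposited peak lists. Per the labels and the study's methods, the authors aligned reads to mm9 with bowtie 0.12.7, retained reads that mapped to 1 place only, and ran MACS2 2.0.10 and an altered SPP, for which thresholds followed the irreproducible discovery rate between replicates. They then intersected both lists with BedTools 2.16.1, keeping SPP coordinates. Libraries had 18 cycles of PCR and fragments of 250 to 450 bp. The score deposited by the authors is 1000 for every peak, so list numbers were described instead. Read depth behind a peak is unknown from the files.

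Genes came from GENCODE M1 and sequence from NCBI Build 37, the build named mm9, and all 15087 peaks carry its chromosome names. An OS was given to every gene whose body, extended by 10 kb, held its midpoint. WGATAR was matched exactly on both strands and compared by a two-sided exact McNemar test with windows 5000 bp to the right. Intervals are Wilson intervals at 95% and cover counting error only. The members, lists and tests were chosen with earlier results of these data known. Every member was accounted for by tier, occupied members were named, and position, motif and MACS2 number were given for OS among the first 500 or within 1000 bp of a TSS. The OS of lowest number in each tier was printed, at most 300 bases, and the 3 pathway genes of lowest number were named. Promoters were read from mm9, and the RefSeq promoter table, of another build, was not used here. The scripts were tested on simulated data and used samtools 1.23.1, pysam 0.24.0, scipy 1.17.1, numpy 2.4.6, matplotlib 3.10.9 and Python 3.11.15. Other settings numbered 30, and 3 more were added after the data were seen. The input sample was used only through the peak calls. Of the 69 genes, 1 is included in all counts but is not described by name here.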

Additional observations from a re-analysis of the deposited data

How the results depend on the processing

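Of 33 alternative values, 26 stayed within 1.5 times the reported count, within the interval of the reported value, or on the same side of the test. Some of these could not move. Leaving out the adaptor genes removed no occupied gene, and leaving out pairs whose window overlaps a common OS removed no pair. The number of occupied cascade genes, 14 of 69 (20.3%), moved to 7 (10.1%, against 7.70% of the other genes) with the gene body only. It moved to 29 (42.0%, against 27.7%) with 50 kb and to 4 (5.80%, against 7.24%) with the upper 50% of the common list. Without the Dusp genes it was 8 of 45, a share of 17.8% against 13.7%. The number of OS, 16, moved to 9 with the gene body only and 41 with 50 kb. In these settings more or fewer windows, sites or genes were counted by construction. The share of OS with WGATAR rose from 93.8% to 100% when WGATA or GATAR was accepted, and was 87.5% in the central 100 bp. The excess over windows of 56.2 percentage points ranged from 50 to 68.8 under the other windows and scans (exact McNemar p from 9.8e-04 to 0.00781). Counting each gene ID on its own, and keeping OS outside a gene only at its own TSS, were chosen after seeing the data and gave 14 and 12 genes. Both were counted for the cascade genes only, with no share of the other genes beside them. The 3 peak lists used here hold no value per replicate, so that no replicate could be left out. No paired analysis was possible because there is 1 pooled sample. Depth and peak strength are not in the files, so that absence of an OS says only that no peak passed the authors' thresholds.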
